A study of Mus musculus with 2 samples.

Results

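Interferon-stimulated genes were described in γδ T cells of mouse spleen, in 1 library of freshly isolated cells and 1 library of cells expanded with interleukin 2 (IL-2), called fresh and expanded cells below where values are given. The set was a fixed list of 49 gene symbols, all of which were found among the 24091 genes of the deposited count table. It holds 36 antiviral genes and 13 genes of the large GTPases induced by interferon γ, and it leaves out the Ifitm, Stat and Irf families. Their antigen receptor is built from a γ and a δ chain. The cells were sorted from spleen by flow cytometry. The expanded library came from cells expanded for 5 days with plate-bound anti-CD3, soluble anti-CD28 and 100 U/ml of IL-2. The growth and treatment texts are the same for both libraries, and only the treatment label and the design text mark the freshly isolated cells as not cultured. The comparison therefore joins activation, culture and IL-2. Strain, age and number of mice are not given in the sources used here.

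Interferons are cytokines that put cells into an antiviral state. Type I interferons bind a receptor built from IFNAR1 and IFNAR2 and act through the kinases JAK1 and TYK2 on a factor complex that holds STAT2 and IRF9 and binds the interferon-stimulated response element (ISRE). Interferon γ, a product of activated T and NK cells, binds IFNGR1 and IFNGR2 and acts through JAK1 and JAK2 on factors that bind the γ-activated sequence (GAS), and through the factor IRF1. Many target genes answer to both kinds of interferon. The antiviral genes encode sensors of foreign nucleic acids and proteins that block virus replication, and the immunity-related GTPases (IRG) and guanylate-binding proteins (GBP) attack the vacuoles of intracellular microbes.

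Counts summed to 20379385 in fresh and 22204099 in expanded cells. Levels are CPM, counts per 1000000 of the library size scaled by the trimmed mean of M-values (TMM), and 1 count equalled 0.0465 CPM in the freshly isolated and 0.0476 CPM in the expanded library. With 1 library per group there are no replicates and no tests, and the intervals given are exact 95% intervals of the ratio that cover counting error only. The T cell label was checked against the CD3 chains, with Cd3e at 734 CPM in fresh and 688 CPM in expanded cells, while constant genes of the γδ receptor were not analysed here. Other T cell genes were further apart: of 8 measured genes in the T cell list 3 were at least 2-fold lower in expanded cells (Cd5 29.9-fold, Cd2 5.19-fold and Lck 2.10-fold) and 0 higher, where the shares over all 11715 measured genes were 25.0% and 22.4%. Of 5 measured αβ T cell markers 3 were lower (Cd40lg, Cd4 and Cd8b1) and 1 was higher, with Cd4 29.6-fold lower and Cd8a 9.83-fold higher. Markers of other spleen cells differed between the libraries. The erythroid markers Hbb-bs (44.8 CPM in fresh cells) and Slc4a1 (19.1 CPM) had 0 counts in expanded cells. The neutrophil marker Ly6g went the other way, with 0 counts in fresh and 374 counts (17.8 CPM) in expanded cells. The neutrophil markers S100a8 and S100a9 had 5 and 8 counts in fresh and 0 counts in expanded cells. Of 21 measured macrophage and monocyte markers, 19 were at least 2-fold lower in the expanded library and 0 higher. Their summed level was 1613 CPM in fresh and 209 CPM in expanded cells. Ly6c2 alone held 421 and 154 CPM of these sums, and it is also in the list of other interferon-induced genes below. In expanded cells 12 of the 22 in the list had 0 counts, among them Lyz2, C1qa and Vcam1. Markers of B and plasma cells were at least 2-fold lower in 11 of 11 measured. Their summed level was 961 CPM in fresh and 9.70 CPM in expanded cells, and Jchain alone held 784 CPM in fresh cells. In expanded cells 7 of 13 had 0 counts, among them Jchain, Cd79a and Ms4a1. Of 13 measured dendritic cell markers, 9 were at least 2-fold lower and 1 was higher. Their summed level was 1522 CPM in fresh and 258 CPM in expanded cells. Most of the sum in fresh cells came from Cd74 (582 CPM), H2-Aa (227 CPM), H2-Eb1 (204 CPM) and H2-Ab1 (155 CPM). Flt3 and Cd209a had 6.46 and 4.23 CPM there. Most of the sum in expanded cells came from Runx2 (140 CPM), Tcf4 (52.8 CPM) and Bst2, a member of the set (48.1 CPM). None of these genes was 2-fold apart. The plasmacytoid marker Siglech had 3 counts in fresh and 0 counts in expanded cells. Macrophages, monocytes, B and plasma cells and dendritic cells also express interferon-stimulated genes. The part of any of these other cell types in the values of the set was not tested. Fewer cells of a type and less RNA per cell cannot be told apart in such bulk samples.

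The promoters of the set held the letters of interferon response elements. The 6 shown belong to members with the lowest and highest fold in each class among those with a match before the start site. Windows with an annotated exon before the match were passed over. This left out Gbp2, so that Gbp3, which was only 1.32-fold lower, is shown. Promoter windows of 300 bases, from 250 before to 50 after the start site, were taken from RefSeq (build GRCm38.p6), with the window nearest to the deposited gene start. A window was found for 33 of the 49 members, and for 25 of these the start site was the deposited start itself, while the windows of Herc6 and Irgm2 lay 95871 and 15421 bases away from it. The capitals mark matches to GAAA, then any 2 bases, then GAAA, the core letters of the ISRE, or to the same letters on the other strand (TTTC, any 2 bases, TTTC). Each line runs 5′ to 3′ on the strand of the gene and stops before the start site and before any annotated GENCODE exon. The antiviral gene Slfn5 (chr11:82951907-82951996, plus strand) and Ifit3 (chr19:34583333-34583456, plus strand) were far lower in expanded cells, and Bst2 (chr8:71537547-71537642, minus strand) was higher there. Of the GTPases, Gbp5 (chr3:142496729-142496818, plus strand) and Gbp3 (chr3:142559959-142560043, plus strand) were lower and Igtp (chr11:58199482-58199555, plus strand) was higher.
Slfn5: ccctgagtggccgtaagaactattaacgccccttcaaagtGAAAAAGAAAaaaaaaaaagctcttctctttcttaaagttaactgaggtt
Ifit3: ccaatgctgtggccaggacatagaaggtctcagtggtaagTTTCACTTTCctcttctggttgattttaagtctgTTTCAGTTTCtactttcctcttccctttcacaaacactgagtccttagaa
Bst2: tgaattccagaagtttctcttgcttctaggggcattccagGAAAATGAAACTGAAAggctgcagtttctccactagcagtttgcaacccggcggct
Gbp5: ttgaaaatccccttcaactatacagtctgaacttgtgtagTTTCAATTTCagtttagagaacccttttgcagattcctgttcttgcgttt
Gbp3: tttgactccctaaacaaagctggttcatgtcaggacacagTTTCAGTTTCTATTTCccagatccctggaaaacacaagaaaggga
Igtp: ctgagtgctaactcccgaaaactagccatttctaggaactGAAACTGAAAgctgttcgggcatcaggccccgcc

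The ISRE letters stood in the windows of 19 of 33 members (57.6%), against 608 of 17453 windows over all genes of the table (3.48%). They were present in 7 of 8 GTPase windows (87.5%) and in 12 of 25 antiviral windows (48.0%). The GAS letters TTCNNNGAA, which read alike on both strands, stood in 10 of 33 members (30.3%) and in 8.06% of all windows. By class they stood in 4 of 8 GTPase windows (50%) and in 6 of 25 antiviral windows (24%). Both patterns occurred in 6 members (18.2%) and in 0.596% of all windows. Of 27 ISRE matches in the set, 25 lay before the start site, as do 250 of the 300 bases of each window. Matches that share bases were counted separately, as in Bst2 and Gbp3 above and in 5 members in all, and 1 GAS match shared bases with an ISRE match. The letters did not separate the members by fold: the ISRE pattern stood in 9 of 17 windows of members that were at least 2-fold lower (52.9%) and in 10 of 15 windows of members within 2-fold (66.7%), and this difference was not tested. Isg20, the member furthest up, held 1 GAS match and 0 ISRE matches. A match describes letters and is not evidence of binding.

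**Figure D1:**
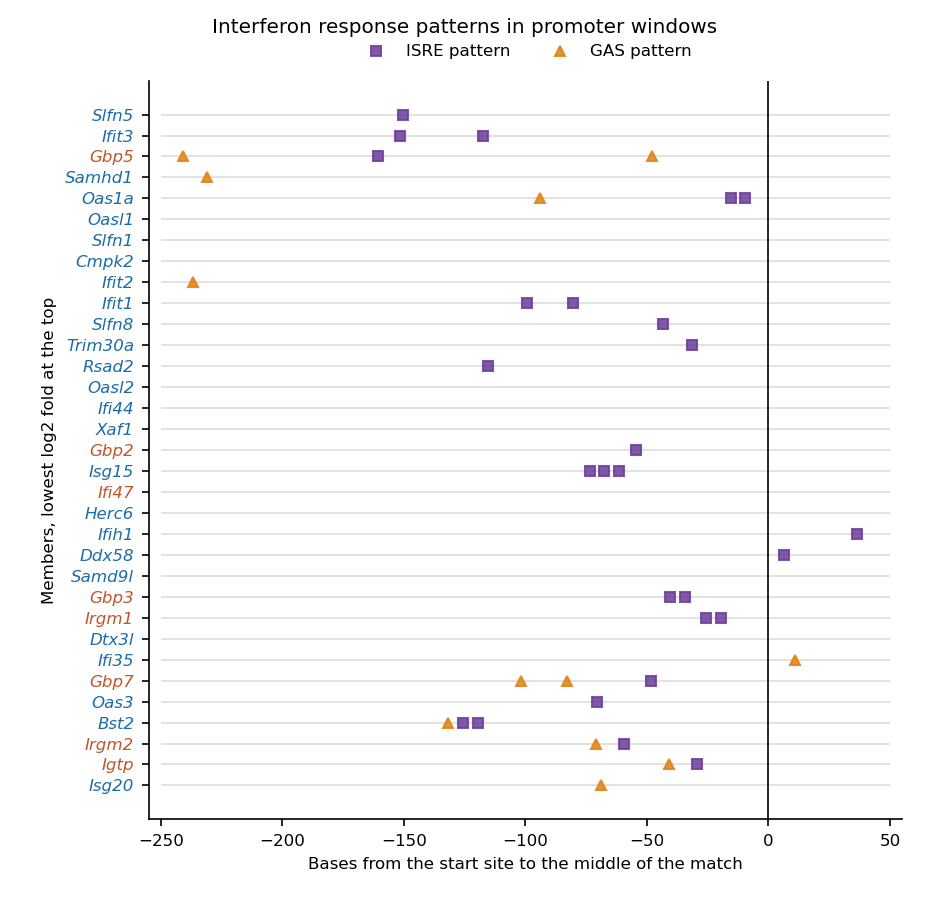
Matches to the ISRE pattern (squares) and the GAS pattern (triangles) in the promoter windows of 33 members, ordered from the lowest log2 fold at the top. The x axis gives bases from the start site to the middle of each match, and blue names are antiviral genes and orange names GTPases. Windows with ISRE matches are found from the top to near the bottom of the order. Of 27 ISRE matches 25 lie left of the start site, as do 250 of the 300 bases of each window.

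Across the set, transcript levels were more often lower than higher in the expanded library. Genes were counted where both libraries together averaged 1 CPM or more, which all 49 members did. At least 2-fold lower were 23 of 49 (46.9%), against 25.0% of the 11715 genes that met the minimum, and at least 2-fold higher was 1 of 49 (2.04%), against 22.4% of these genes. The other 25 lay within 2-fold. At least 4-fold lower were 10 members, where the share over all genes was 13.5%, and 0 were at least 4-fold higher, where it was 8.92%. The median log2 fold (of expanded over fresh cells, prior count 2) was -0.90 for the set and 0.04 for all genes. For 35 members the counting interval of the ratio lay below 1, for 10 it lay above 1 and for 4 it held 1. The set took 0.460% of all counts in the freshly isolated and 0.264% in the expanded library.

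**Figure D2:**
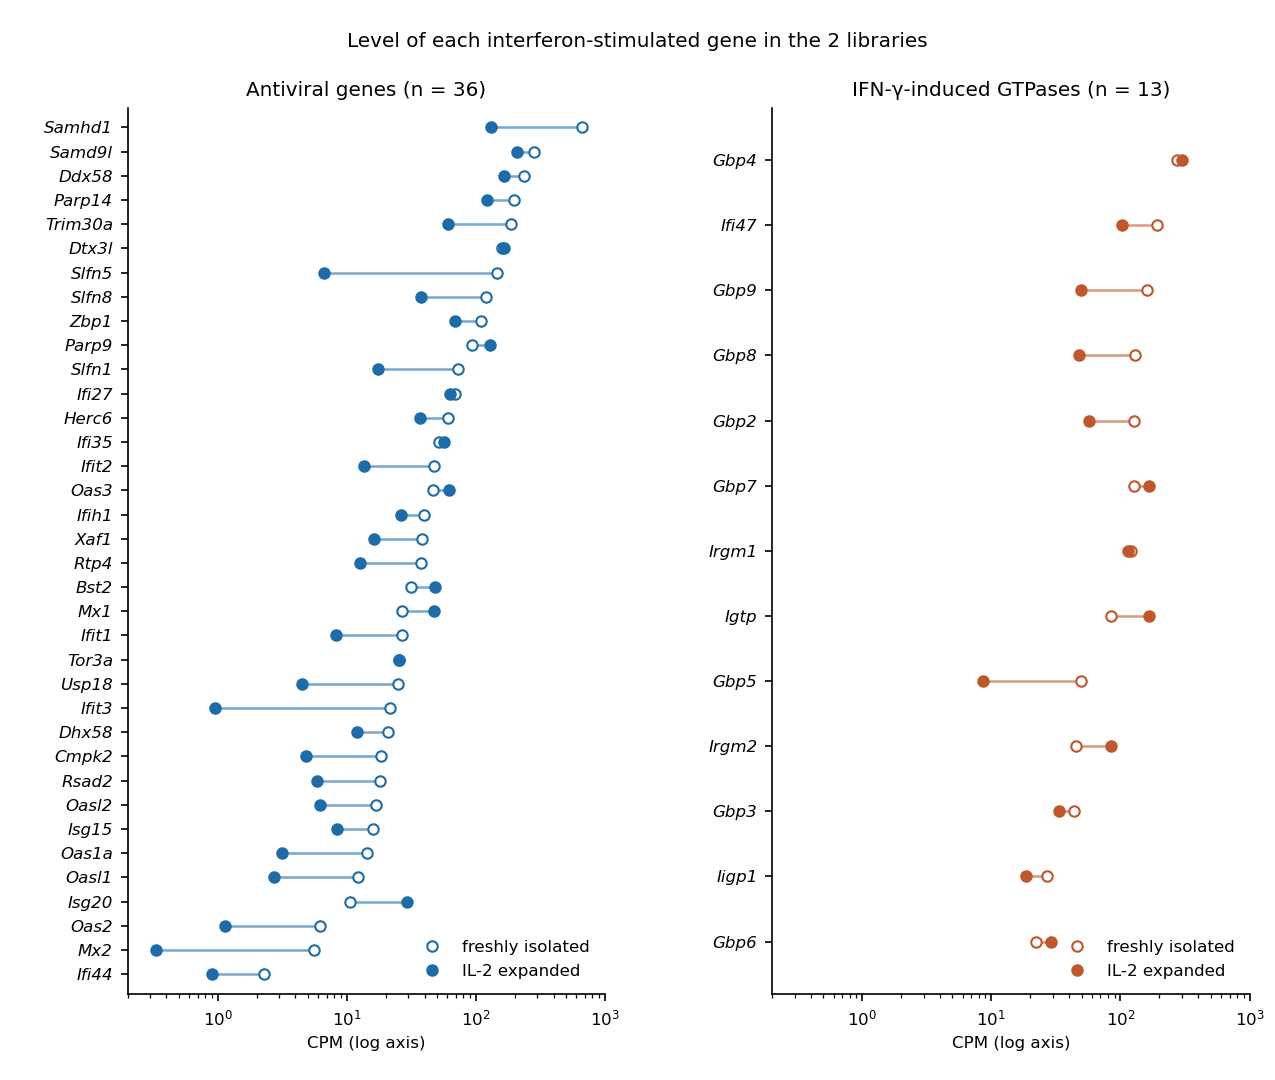
Level of each member in CPM on a log axis, with open circles for the freshly isolated and filled circles for the IL-2 expanded library, 1 library each. Antiviral genes are on the left and GTPases on the right, ordered by their level in freshly isolated cells. Most filled circles lie left of the open ones, with Slfn5, Ifit3 and Mx2 furthest apart, while Isg20, Igtp, Irgm2 and Mx1 lie the other way.

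Antiviral genes were 19 of the 23 members at least 2-fold lower, and they are 36 of the 49 members. At least 2-fold lower were 19 of 36 (52.8%), against 25.0% of all measured genes. At least 2-fold higher was 1 (2.78%), against 22.4% of these genes, and the median log2 fold was -1.23. Of the 13 GTPase genes, 4 were at least 2-fold lower (30.8%) and 0 higher, with a median of -0.39, and the share that was lower is near the 25.0% of all genes. The summed level of the antiviral genes was 2953 CPM in fresh and 1609 CPM in expanded cells. That of the GTPases was 1404 and 1176 CPM. Samhd1 alone made up 22.5% of the antiviral sum in freshly isolated cells, and without it the sums were 2290 and 1479 CPM. No test of the difference between the classes was made.

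**Figure D3:**
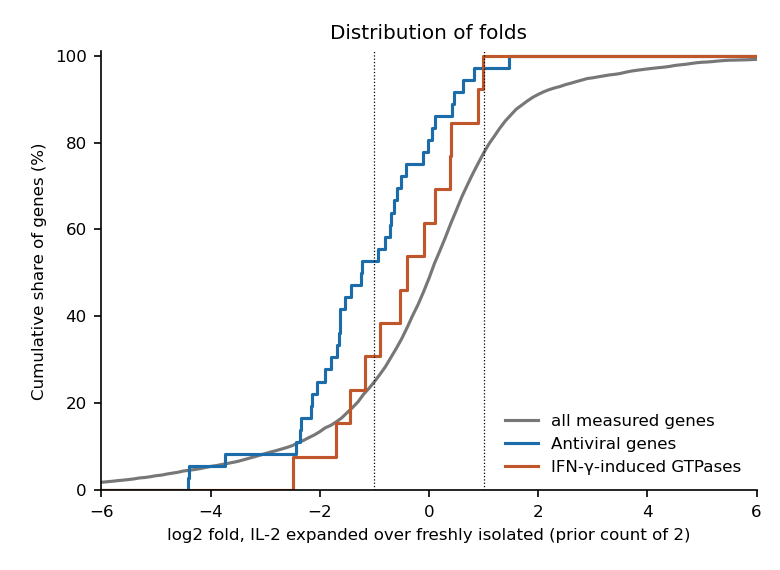
Cumulative share of genes (y axis, percent) by log2 fold, expanded over freshly isolated (x axis), for all 11715 measured genes (grey), 36 antiviral genes (blue) and 13 GTPases (orange). Dotted lines mark 2-fold. The blue line runs above and to the left of the grey one around the lower 2-fold line, at 52.8% against 25.0%, and the orange line passes it at 30.8%.

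The IFIT proteins bind viral RNA that lacks the marks of host messenger RNA. All 3 were at least 2-fold lower in expanded cells, against 25.0% of all measured genes, and they lie in 1 cluster on chromosome 19. Ifit3, the partner that stabilises IFIT1 (chromosome 19, 34583529 to 34588982 on GRCm38), had 21.8 CPM in fresh and 0.951 CPM in expanded cells, from 469 and 20 counts. It was 22.9-fold lower (interval 14.7 to 37.8). Its neighbours were less far apart, with Ifit2 at 47.6 and 13.6 CPM, 3.50-fold lower (3.07 to 4.0), and Ifit1 at 26.7 and 8.28 CPM, 3.23-fold lower (2.72 to 3.85). Ifit3 has a close copy, Ifit3b, at 2.88 and 0.238 CPM, and the deposited span of Ifit1 overlaps that of Ifit1bl1 on the other strand, so that the division of counts among these genes is uncertain.

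The oligoadenylate synthetases make a messenger that switches on RNase L. Of 5 OAS family members, 4 were at least 2-fold lower, against 25.0% of all measured genes. Oas2 stood at 6.23 and 1.14 CPM, 5.45-fold lower (3.51 to 8.81), and Oas1a at 14.3 and 3.14 CPM, 4.56-fold lower (3.48 to 6.04). The OAS-like genes lay in the same direction, Oasl1 at 12.3 and 2.71 CPM (4.54-fold lower) and Oasl2 at 16.8 and 6.18 CPM (2.72-fold lower). Oas3 went the other way at 46.4 and 62.0 CPM, 1.34-fold higher (1.23 to 1.45). It lies 3.25 kb from Oas2 on the same strand. The summed level of the family was 96.0 CPM in fresh and 75.2 CPM in expanded cells, of which Oas3 made up the greater portion in expanded cells.

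The Mx proteins are dynamin-like GTPases that trap virus components. Mx1 stood at 26.9 CPM in fresh and 47.6 CPM in expanded cells, 1.77-fold higher (1.60 to 1.96). Mx2 stood at 5.57 and 0.333 CPM, from 120 and 7 counts, and was 16.7-fold lower (7.88 to 42.5). The pair lies 73.2 kb apart on chromosome 16 and was the neighbouring pair furthest apart in fold, by 4.55 on the log2 scale.

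Of the 4 sensors of foreign nucleic acids none was 2-fold apart, and the interval lay below 1 for each. Over all measured genes 25.0% were at least 2-fold lower and 22.4% higher. Ddx58, which encodes the RNA sensor RIG-I, stood at 238 and 166 CPM, 1.43-fold lower (1.37 to 1.5). Ifih1, which encodes the sensor MDA5, stood at 39.3 and 26.3 CPM, 1.49-fold lower (1.34 to 1.67). Dhx58, whose product LGP2 tunes both, stood at 21.0 and 12.0 CPM, 1.75-fold lower (1.49 to 2.05), and Zbp1, a sensor of left-handed nucleic acids that starts necroptosis, at 109 and 69.5 CPM, 1.57-fold lower (1.47 to 1.67).

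ISG15 is a ubiquitin-like protein that HERC6 attaches to targets in mice and USP18 removes. Usp18, which also blocks signalling at the type I receptor, stood at 24.8 and 4.52 CPM, 5.49-fold lower (4.41 to 6.90). Isg15 stood at 16.0 and 8.32 CPM, 1.93-fold lower (1.60 to 2.32), and passed 2-fold with 3 of the other scalings. Herc6 stood at 60.6 and 36.8 CPM, 1.65-fold lower (1.5 to 1.80). Outside the set, Uba7, the activating enzyme of the same pathway, stood at 231 and 35.1 CPM, 6.58-fold lower. Ube2l6, its conjugating enzyme, stood at 3.76 and 2.62 CPM, 1.44-fold lower (1.01 to 2.06).

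Enzymes that act on nucleotides or RNA held both the member with the largest difference in CPM and the member furthest up. Samhd1, which breaks down deoxynucleotides in resting cells, had the highest CPM of all members in freshly isolated cells before division by length, 663 CPM, and stood at 130 CPM in expanded cells, 5.09-fold lower (4.88 to 5.30). Rsad2, which encodes viperin, a maker of a chain-terminating nucleotide, stood at 18.2 and 5.85 CPM, 3.11-fold lower (2.54 to 3.84). Cmpk2, a nucleotide kinase whose product feeds viperin and which lies 12.8 kb from Rsad2 on the other strand, stood at 18.4 and 4.85 CPM, 3.79-fold lower (3.04 to 4.76). Isg20, an exonuclease that degrades RNA (chromosome 7, 78913424 to 78920396), stood at 10.5 and 29.2 CPM and was 2.77-fold higher (2.37 to 3.24).

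PARP9 and DTX3L form a complex of an ADP-ribosyltransferase family protein and a ubiquitin ligase, and PARP14 is a related ADP-ribosyltransferase. Parp9 stood at 93.5 and 129 CPM, 1.38-fold higher (1.30 to 1.46). Dtx3l stood at 159 and 164 CPM, a ratio of 1.03 (0.985 to 1.08) that fell below 1 with total counts, upper quartiles or the scaling without the most abundant genes. Parp14 stood at 197 and 122 CPM, 1.62-fold lower (1.54 to 1.70). Parp9 and Dtx3l start next to each other on opposite strands with overlapping spans, so that without a stated use of strand the counts in the overlap are uncertain.

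Schlafen proteins restrict protein synthesis and growth, and SAMD9L is an antiviral translation inhibitor. Slfn5 (chromosome 11, 82952102 to 82964850) stood at 145 CPM in fresh and 6.66 CPM in expanded cells, from 3111 and 140 counts. It was 21.7-fold lower (18.3 to 25.9), the narrower interval reflecting more counts than for Ifit3. Slfn1, which slows T cell growth when overexpressed, stood at 73.3 and 17.5 CPM, 4.19-fold lower (3.73 to 4.70), and Slfn8 at 119 and 37.8 CPM, 3.14-fold lower (2.9 to 3.40). Samd9l stood at 281 and 209 CPM, 1.34-fold lower (1.29 to 1.40). Of the relatives outside the set, Slfn3 at 2.28 and 17.3 CPM and Slfn9 at 5.16 and 30.4 CPM lay the other way. Slfn2, at 237 and 150 CPM, was 1.58-fold lower (1.51 to 1.65), and Slfn4 had few counts (7 and 3). Reads that fit several members of such a family could be divided or dropped in ways the sources used here do not give.

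Of the remaining 8 antiviral genes, 4 were at least 2-fold lower, against 25.0% of all measured genes, and 4 lay within 2-fold. Trim30a, a ubiquitin ligase family protein, stood at 188 and 60.7 CPM, 3.10-fold lower (2.91 to 3.30), and Rtp4, a negative regulator of interferon responses, at 37.3 and 12.7 CPM, 2.93-fold lower (2.55 to 3.38). Xaf1, which promotes apoptosis, stood at 38.0 and 16.3 CPM, 2.34-fold lower (2.06 to 2.66). Ifi44 had few counts (49 and 19), so that its ratio of 2.52-fold lower is loosely set (1.46 to 4.53). Bst2, which encodes tetherin, a protein that holds virus particles on the cell surface and is also a marker of plasmacytoid dendritic cells, stood at 31.4 and 48.1 CPM, 1.53-fold higher (1.39 to 1.69). Tor3a (25.4 and 25.2 CPM) and Ifi27 (68.3 and 63.5 CPM) had intervals that held 1. So did Ifi35 (52.0 and 56.2 CPM), whose ratio of 1.08 fell below 1 with scaling by total count.

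The IRG genes were spread around no change, with none of 5 at least 2-fold apart. Over all measured genes 25.0% were at least 2-fold lower and 22.4% higher. IRGM1, IRGM2 and IGTP are regulators that guard the membranes of the host, and the products of Ifi47 and Iigp1 act on microbial vacuoles. Igtp stood at 84.2 CPM in fresh and 166 CPM in expanded cells, 1.98-fold higher (1.87 to 2.09), and Irgm2 at 45.6 and 85.2 CPM, 1.87-fold higher (1.73 to 2.02). The deposited spans of Igtp and Irgm2 start at the same base (chromosome 11, 58199556) on the same strand, so that the division of counts between them is uncertain. Irgm1 stood at 121 and 114 CPM, 1.06-fold lower, with an interval that lay narrowly below 1. Lower values were seen for Iigp1 (26.8 and 18.5 CPM, 1.45-fold) and for Ifi47 (191 and 103 CPM, 1.86-fold, 1.77 to 1.96), and Ifi47 passed 2-fold with scaling by total count. The summed level of the 5 genes was 468 CPM in fresh and 486 CPM in expanded cells.

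The GBP family divided, with 4 of 8 at least 2-fold lower, against 25.0% of all measured genes, and 4 within 2-fold. Gbp5, which promotes inflammasome assembly (chromosome 3, 142496934 to 142522344), stood at 49.1 and 8.66 CPM, 5.67-fold lower (4.84 to 6.67). Gbp9 stood at 161 and 49.5 CPM, 3.25-fold lower (3.03 to 3.49), Gbp8 at 129 and 47.6 CPM, 2.72-fold lower (2.53 to 2.93), and Gbp2, which coats microbial vacuoles, at 128 and 56.9 CPM, 2.25-fold lower (2.11 to 2.41). Gbp3 stood at 43.7 and 33.2 CPM, 1.32-fold lower (1.19 to 1.45). Gbp7 (128 and 166 CPM, 1.30-fold) and Gbp6 (22.2 and 29.2 CPM, 1.32-fold) were higher in expanded cells. Gbp4, the GTPase with the highest CPM in both libraries before division by length, stood at 275 and 298 CPM, a ratio of 1.08 (1.05 to 1.12) that fell below 1 with scaling by total count. Gbp6 overlaps Gbp10 in the table, and Gbp3, Gbp5 and Gbp7 overlap the span of Gbp2b, which had 2 and 0 counts.

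**Figure D4:**
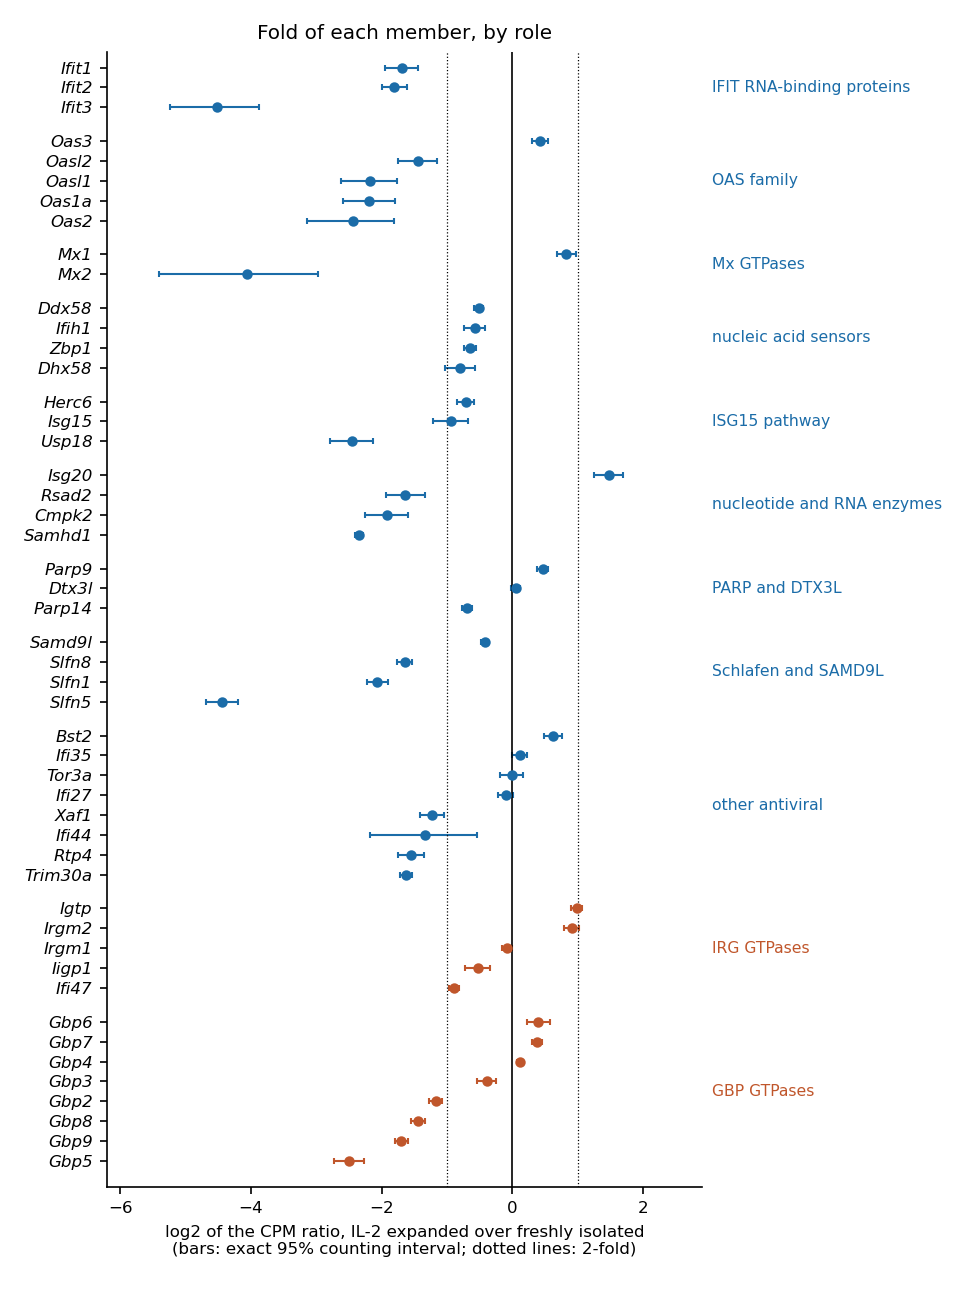
Log2 of the CPM ratio, expanded over freshly isolated, for each member by role, with exact 95% counting intervals as bars and dotted lines at 2-fold. Antiviral genes are blue and GTPases orange. Ifit3, Slfn5 and Mx2 lie furthest left, the 5 IRG genes lie within 2-fold, and Isg20 is the gene beyond the right dotted line.

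Many members sit next to each other in the genome, and neighbours did not always share a call by size of fold. Taking members within 100 kb of each other, 16 neighbouring pairs were formed from 26 members, and 11 pairs had the same call (at least 2-fold lower, or within 2-fold). The pairs with different calls were Mx1 and Mx2, Oas2 and Oas3, Gbp5 and Gbp7, Gbp9 and Gbp4, and Gbp3 and Gbp2. A call is not a direction. Gbp3 and Gbp2 were both lower, while Gbp7 (0.38) and Gbp3 (-0.39) shared a call and lay on opposite sides of no change. Gbp5 and Gbp7 lie 7.99 kb apart on the same strand of chromosome 3 and differed by 2.87 on the log2 scale (-2.49 and 0.38). Gbp9 and Gbp4 lie 5.48 kb apart on chromosome 5 and differed by 1.81 (-1.70 and 0.12). Rsad2 and Cmpk2 (-1.62 and -1.90) and Gbp8 and Gbp9 (-1.44 and -1.70) were close in fold.

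Levels of different genes were compared per kb of the gene length that the authors' table gives. On this scale of CPM per kb, Ifi47 was the highest member in freshly isolated cells at 95, followed by Samhd1 at 81.6, Ifi27 at 65.3 and Gbp4 at 60.8. In expanded cells Igtp was the highest at 82.4, followed by Gbp4 at 65.9, Bst2 at 63.2 and Ifi27 at 60.7, while Samhd1 was at 16.1. Of the 10 highest members in each library, 6 were in both. The median member was at 14.8 CPM per kb in freshly isolated and 10.4 CPM per kb in expanded cells.

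The genes that make and carry the interferon signal were described from lists of the pathway. The interferon γ gene Ifng had 147 CPM in fresh and 135 CPM in expanded cells, 1.08-fold lower (1.03 to 1.14). Of the 9 other interferon genes in the list, 8 had 0 counts in both libraries and Ifnb1 had 0 and 3, and 0 counts allow up to 0.139 and 0.143 CPM (3 counts). Receptor and kinase genes were lower: of 8 measured, 7 were at least 2-fold lower (87.5%, against 25.0% of all measured genes) and 0 higher (against 22.4%), with a median log2 fold of -2.11, where that of all genes was 0.04. Ifngr2, the signalling chain of the interferon γ receptor, stood at 70.9 and 2.24 CPM, 31.7-fold lower (23.7 to 43.4), and Ifngr1, its ligand-binding chain, at 1325 and 231 CPM, 5.73-fold lower (5.56 to 5.91). The type I receptor chains lay in the same direction, Ifnar1 at 273 and 68.9 CPM (3.96-fold lower) and Ifnar2 at 145 and 30.8 CPM (4.69-fold lower). Il10rb, a chain shared by the IL-10 and type III interferon receptors, stood at 155 and 27.0 CPM.

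Of 8 STAT and IRF genes described here, 5 were at least 2-fold lower (62.5%, against 25.0% of all genes) and 1 was higher (12.5%, against 22.4%), with a median of -1.17. Irf1 stood at 678 and 97.9 CPM (6.92-fold lower), Irf7, which amplifies type I interferon, at 97.6 and 19.0 CPM (5.13-fold lower), and Irf9 at 136 and 44.6 CPM (3.04-fold lower). Stat2 stood at 84.6 and 40.1 CPM, 2.11-fold lower. Irf8 went the other way at 45.8 and 382 CPM, 8.36-fold higher (7.82 to 8.94). Of 7 signalling inhibitors, 4 were at least 2-fold lower (57.1%, against 25.0% of all genes) and 0 higher, with Socs3 at 509 and 12.1 CPM and Socs1, which blocks JAK kinases below the interferon γ receptor, at 49.3 and 71.6 CPM, 1.45-fold higher (1.34 to 1.57).

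**Figure D5:**
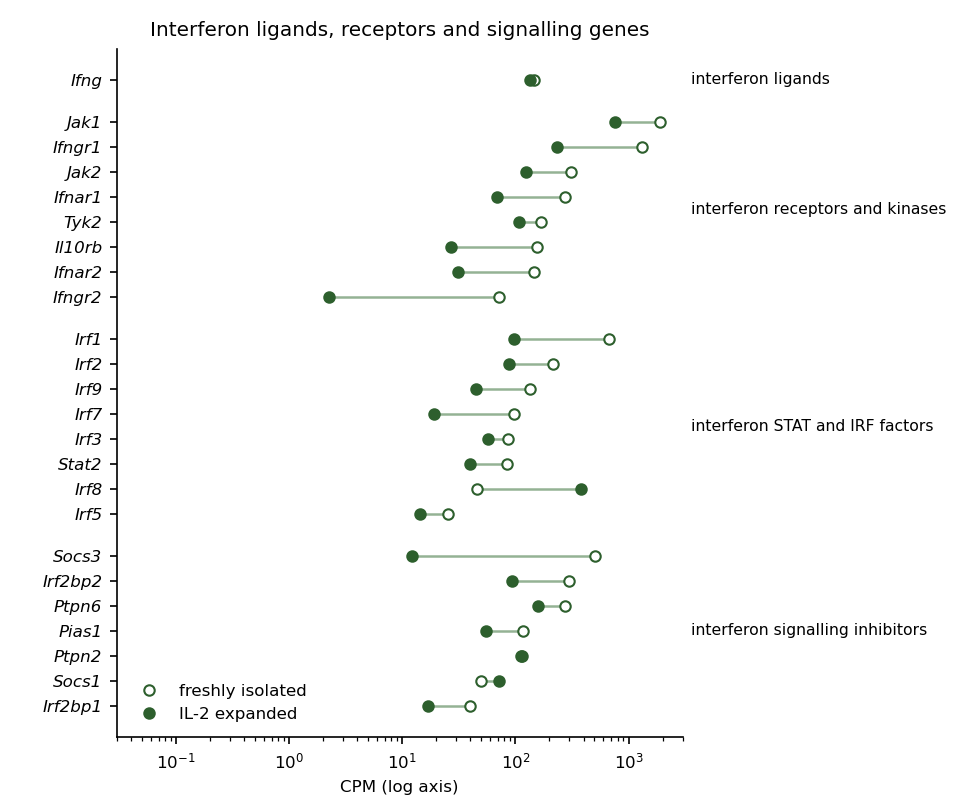
Level in CPM on a log axis of the measured interferon ligand, receptor, kinase, STAT, IRF and inhibitor genes, with open circles for the freshly isolated and filled circles for the expanded library. Ifng lies at almost the same level in both, the receptor genes are all further left in expanded cells, and Irf8 and Socs1 lie the other way.

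Other interferon-induced genes outside the set showed a similar share of lower values. Of 68 measured, 33 were at least 2-fold lower (48.5%, against 25.0% of all genes) and 7 higher (10.3%, against 22.4%), with a median log2 fold of -0.98. Ms4a4c, a membrane protein of the CD20 family, stood at 80.0 CPM and 3 counts, 561-fold lower with an interval from 192 to 2723, and the chemokine gene Cxcl9 at 3.90 CPM and 0 counts, at least 27.3-fold lower. Ifi203, a member of the interferon-induced cluster of DNA-binding proteins, stood at 323 and 18.2 CPM, 17.7-fold lower. Ly6a, which encodes Sca-1, was the gene of this list furthest up at 54.7 and 1601 CPM, and Gm12250, which encodes the IRG protein IRGB10, stood at 23.0 and 91.4 CPM. The IRG genes Tgtp1 (17.1 and 6.42 CPM, 2.66-fold lower) and Tgtp2 (33.7 and 11.2 CPM, 3.02-fold lower) lay the other way. Of 13 genes for sensing receptors and adaptors, 5 were at least 2-fold lower (38.5%, against 25.0% of all genes) and 0 higher, among them the kinase gene Ikbke (208 and 42.8 CPM) and the endosomal receptor genes Tlr7 (18.6 and 3.62 CPM) and Tlr9 (4.32 CPM and 0 counts). Mavs, the adaptor of the RNA sensors, stood at 31.9 and 58.4 CPM, 1.83-fold higher (1.66 to 2.01).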

How the data were processed

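The authors deposited whole-number read counts per gene, with gene spans and a gene length in kb, in 1 column per library; columns were matched to libraries by title. Per the submitters' processing notes the builds were mm10 and GRCm38 and the tools STAR 2.6.0, edgeR 3.28.1, HTSeq 0.6.0 and bcl2fastq 2.18.0.12; the annotation, the use of strand and the treatment of reads that fit several genes are not given in the sources used here.

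Libraries were scaled with TMM factors (edgeR 4.0.16, R 4.3.3; 1.06 for freshly isolated and 0.947 for expanded cells). Log2 folds used a prior count of 2, printed single-gene folds are plain CPM ratios, and genes averaging 1 CPM or more over both libraries were counted by size of fold (2-fold and 4-fold, on the log2 fold with prior count). Counting intervals are exact conditional binomial (Clopper-Pearson), and 0 counts were set to a floor of 3 counts in that library for a bound. Intervals and floors cover counting error only, and since PCR copies were not marked they may understate even that. There was no test, since each group has 1 library.

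All 49 members are named; from each pathway list a selection of the 4 genes furthest from no change, and always the interferon γ gene and the main receptor, STAT and IRF genes, are named. Promoters are printed for the members with the lowest and highest fold in each class that hold an ISRE match before the start; windows with an annotated exon before the match were passed over, a condition added after seeing them. Ifi203, Slfn2, Slfn3, Slfn4, Slfn9, Ifit3b, Uba7, Ube2l6, Gm12250, Tgtp1, Tgtp2, Mavs and Socs1 were chosen after their values were seen. Members and lists were chosen with earlier results of these data known. Marker genes were taken from general knowledge. Span overlaps leave out 34 rows that span at least 3 Mb, which are genes listed at several places. The calculation was tested on simulated data. Alternatives were 4 other scalings (total count, DESeq2 1.42.0 size factors, upper quartiles, total count after removal of each library's 50 most abundant genes), prior counts of 0.5 and 5, no minimum and a minimum of 5 CPM, and, added after seeing the data, members without an overlapping gene. 1 gene of the STAT and IRF list is not reported here and was left out of the list.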

Additional observations from a re-analysis of the deposited data

How the results depend on the processing

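No result changed direction, except the ratios of Dtx3l, Ifi35 and Gbp4 near 1, and no paired analysis was possible because each group has 1 library. The counts of members at least 2-fold and 4-fold apart stayed within 1.5 times their main values under the 8 other settings of scaling, prior count and minimum; 25 members were at least 2-fold lower with total counts, where Isg15 and Ifi47 passed 2-fold. Scaling by total count shifted the median of all genes by -0.15, and with it the median log2 fold to -1.05 for the set and -0.55 for the GTPases. Relative to all genes the median of the set was -0.93 with each of the 5 scalings. A scaling shifts all log2 folds by nearly the same amount, so that this value could hardly differ between them. The expanded over freshly isolated ratio of summed CPM was 0.545 for the antiviral genes and 0.837 for the GTPases. For the antiviral genes it was 0.488 with total counts, 0.536 with DESeq2 size factors, 0.519 with upper quartiles and 0.516 without the most abundant genes. For the GTPases it was 0.750 with total counts, 0.797 with upper quartiles and 0.793 without the most abundant genes. Without the 15 members whose span overlaps another gene, 34 members were left. The median of the set was then -1.34, 2 of the 5 GTPases left were at least 2-fold lower (4 of 13 with all), and the ratios of sums were 0.487 and 0.740, from fewer genes. A minimum of 5 CPM kept 46 members and left out Mx2, Oas2 and Ifi44, each at least 2-fold lower. The median log2 fold was then -0.76 for the set, where the main value was -0.90. For the antiviral genes it was -0.94, within 2-fold, where the main value was -1.23. Depth limits the folds of Mx2, Ifit3, Ifi44 and Oas2, which had 7 to 24 counts in expanded cells.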
